A study of Tripsacum dactyloides with 133 samples.

Results

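The transcriptional response of well-watered eastern gamagrass (*Tripsacum dactyloides*) roots to a live soil microbiota was examined by comparing plants that had received a live inoculum with plants that had received a mock inoculum. The members were chosen by their labels: every plant kept well-watered in the test phase, 62 with a live inoculum and 3 with mock, which makes 65 libraries of the series besides 68 others. A further watered mock plant (mock replicate 1) was left out because its library held 6045 counts in all. All plants were of the gamagrass cultivar Pete, and RNA came from crown roots grown in pots of sterilised substrate. The live plants were watered test-phase plants given the microbial extract of a soil from Clinton Wildlife Reserve, Welda Prairie, Smoky Valley Ranch or Tribune, prairie sites labelled CWR (n = 16), WEL (n = 14), SVR (n = 16) and TRI (n = 16). Each soil had first been conditioned with gamagrass or with no host, and either drought-stressed or well-watered, which gave 16 plants for gamagrass and drought, 16 for gamagrass and ample water, 14 for no host and drought, and 16 for no host and ample water. Extracts were not pooled, and each watered gamagrass plant received the extract of a different conditioning pot, from which a droughted plant was also inoculated, whereas the mock plants (mock replicates 2, 3 and 4) received sterile buffer in place of the microbial pellet. Whether mock roots stayed free of microorganisms was not analysed here.

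Roots meet soil bacteria and fungi with an innate immune system that recognises microbial molecules and switches on defence genes, such as those for pathogenesis-related proteins and peroxidases. Beneficial microorganisms, among them mycorrhizal fungi, are received through a partly separate signalling pathway. Hormones such as ethylene and abscisic acid modulate both. A comparison with plants that received no live inoculum therefore asks which of these programmes, or which other genes, differ with the microbiota as a whole.

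The 62 live libraries held 1.14 to 69.4 M counts (M for mega, median 26.1), and the mock libraries 49.4, 11.7 and 18.96 M in the order of replicates 2, 3 and 4. Depth followed the plant numbers of the labels: the 25 live plants with the lowest numbers had a median of 51.5 M and the other 37 a median of 19.5 M. Plant number was itself associated with expression among live plants, with 5060 of 39523 genes called (12.8%, DESeq2 adjusted p under 0.05). Mock replicate 2 fell in the first stretch of numbers, and replicates 3 and 4 in the second. The files name no genes, so the tissue could not be checked against markers, and microbial RNA was not part of the table. In bulk roots, fewer cells of a type and less RNA per cell cannot be told apart.

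A difference between live and mock plants in the transcriptome as a whole was not detected. Inoculum type took 1.39% of the sum of squares between plants on log2 CPM (counts scaled to the library size), below the 1.56% that a factor of this size takes by chance (exact permutation test over all 43680 assignments of the mock label, one-sided p = 0.553). On the Bray-Curtis distance the share was 1.24% (exact p = 0.657). For total count, genes with a count, plant number and the scores of the first 3 principal components, the difference of the means of live and mock plants had exact permutation p-values of 0.309 to 0.851 over 6 measures (0.745 or more after adjustment). Mock replicate 2 had a score of 167 on the second component, above the highest live plant (161), while replicates 3 and 4 scored -40.1 and -52.2.

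Gene by gene, 39 genes differed between live and mock plants at a DESeq2 adjusted p under 0.05, which is 0.117% of the 33359 genes tested. Of these, 33 were higher (0.0989%) and 6 lower (0.018%) in live plants. The median log2 fold change of all tested genes was 0.05. The scaling of libraries sets the typical gene near 0, so a change shared by most genes would not show in this value. The 39 genes fell into 3 kinds. In 23, all of them higher in live plants, the mock plants had a count of 0. In 10 more that were higher, at least 1 mock plant had a count, and the 6 lower genes had counts in every mock plant. For none of the 39 did the live and mock plants fail to overlap. The only tested gene without overlap was Td00002ba036176 (1 of 33359, 0.003%), and it was not called (log2 fold change -1.79 ± 0.69 SE, DESeq2 adjusted p = 0.635).

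**Figure D1:**
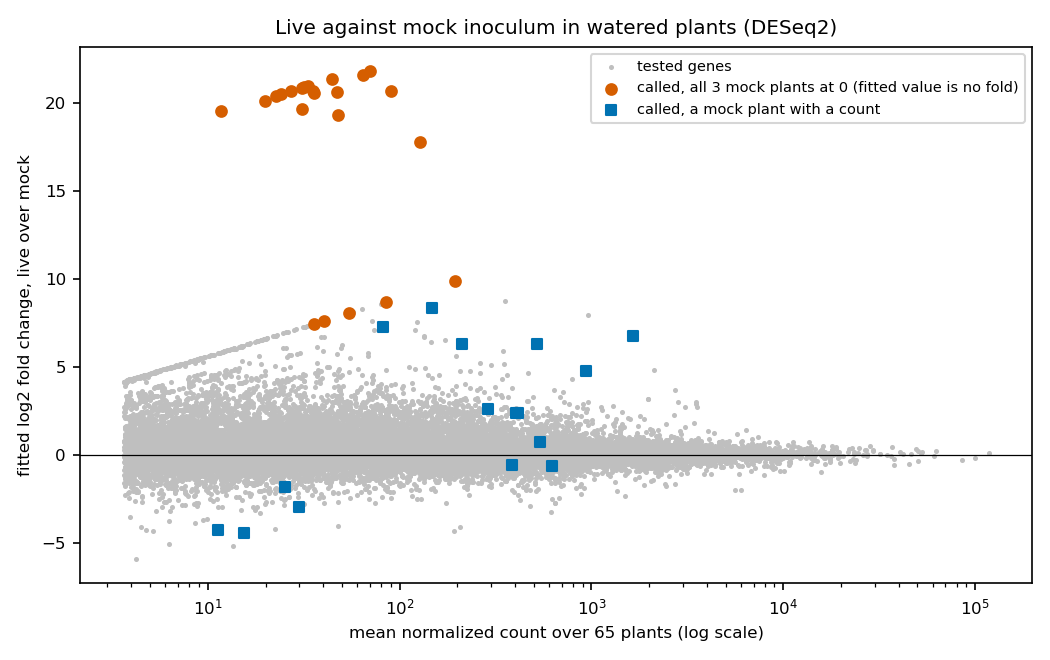
Fitted log2 fold change of live over mock (vertical axis) against the mean normalized count over 65 plants (horizontal axis, log scale) for the tested genes in grey, with the 23 called genes at 0 in all 3 mock plants as circles and the other 16 called genes as squares. The circles reach fitted values up to 21.77, which are not folds since the mock level is 0, whereas the squares run from -4.42 to 8.36.

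The gene that differed most steadily was Td00002ba005946 (chromosome 2, 43041315 to 43051830, plus strand), the orthologue of the maize genes Zm00001eb144380 and Zm00001eb144370. Its normalized count was 299, 380 and 311 in mock replicates 2, 3 and 4. In live plants it ran from 344 over a median of 547 to 769, with a mean of 552 ± 82.4 (SD, n = 62). Of the live plants, 60 lay above all 3 mock plants and the other 2 fell within the range of the mock plants. Its log2 fold change was 0.76 ± 0.13 SE (DESeq2 adjusted p = 2.03e-05). It was the only gene called by all of DESeq2, edgeR (adjusted p = 0.0147) and limma voom (adjusted p = 0.013), and it had the lowest exact permutation p of all tested genes (6.87e-05, two-sided). The files assign it no function, and it was singled out after its values had been seen.

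By the rule for naming genes, which took the largest fitted changes among called genes with a mean of 50 or more and with the mock plants on 1 side of the live median, the lowest genes were Td00002ba002229 and Td00002ba002576 on chromosome 1. Td00002ba002576 (162092977 to 162095851, minus strand, orthologue of Zm00001eb024700) had 751, 528 and 400 normalized counts in mock replicates 2, 3 and 4. Live plants ran from 285 over a median of 371.3 to 518, so that mock replicates 2 and 3 stood above every live plant and replicate 4 among them. Its log2 fold change was -0.57 ± 0.13 SE (DESeq2 adjusted p = 0.0178, edgeR adjusted p = 0.101), and -0.28 without mock replicate 2 (DESeq2 adjusted p = 1). Td00002ba002229 (116904255 to 116920803, plus strand) had 628, 644 and 1446 in the mock plants against 486.9 to 779 in live plants (median 595). Here the difference lay with mock replicate 4: the log2 fold change was -0.58 ± 0.11 SE (DESeq2 adjusted p = 6.06e-04) with it and -0.07 without it (DESeq2 adjusted p = 0.967).

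**Figure D2:**
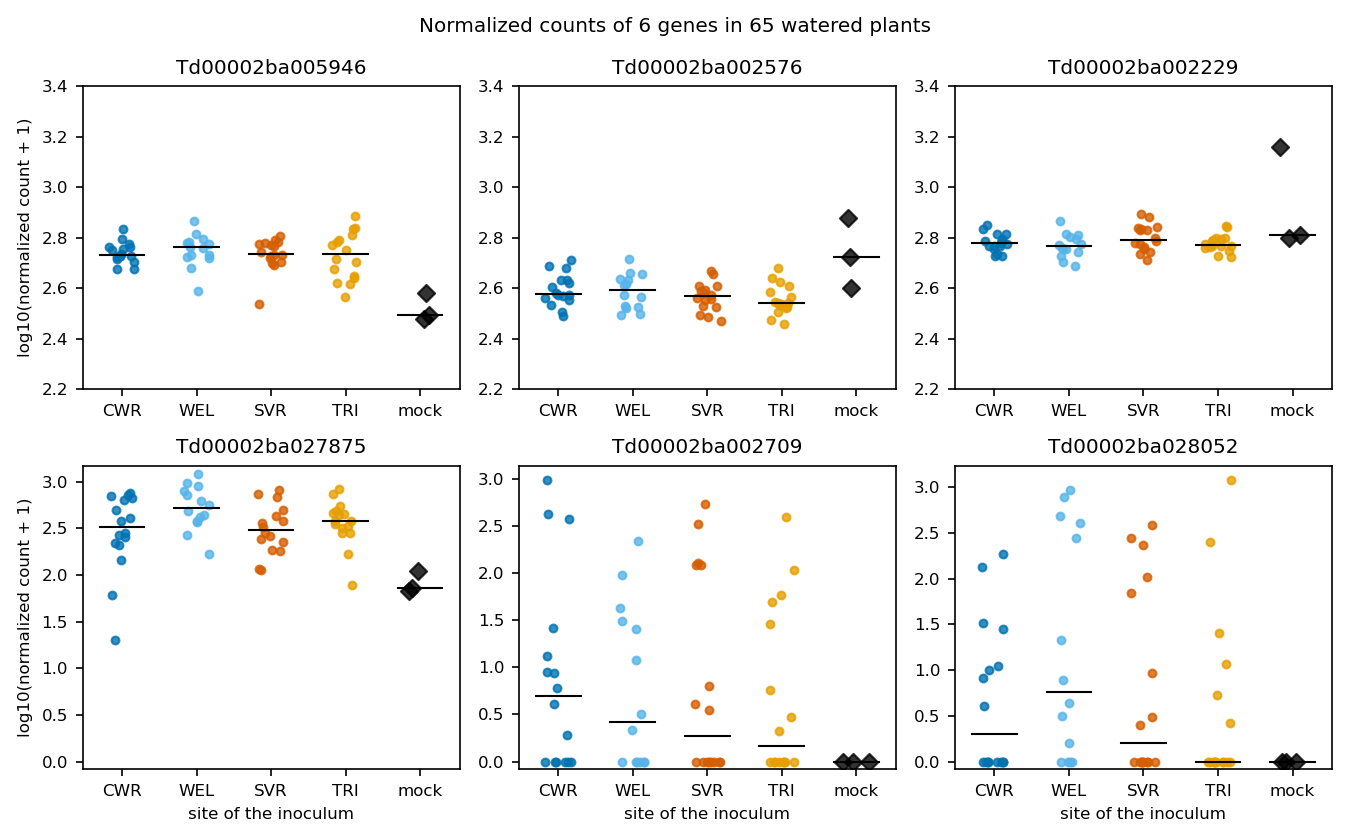
Normalized counts, as log10(count + 1), of 6 genes in each of the 65 watered plants, by the site of the inoculum, with mock plants as diamonds and the median of each group as a line (the upper panels start at 2.2). Td00002ba005946 was lower in the mock plants than in 60 of 62 live plants, whereas Td00002ba002709 and Td00002ba028052 were at 0 in all mock plants and in 28 and 30 live plants.

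The highest genes by the same rule were of another kind. Td00002ba002709 (chromosome 1, 173080347 to 173081593, minus strand, orthologue of Zm00001eb023430) had a count of 0 in all 3 mock plants. In live plants it was at 0 in 28 of 62, its median was 1.56 and its maximum 981, and 5 plants held 65.2% of the live total. Its live mean of 67.3 was 69.1-fold the limit that 3 counts over the mock group allow (0.974 normalized counts). DESeq2 gave Td00002ba002709 an adjusted p of 8.48e-12. An exact permutation test asked how often 3 plants drawn at random would differ as far from the others, in either direction. On the log2(normalized count + 1) scale it gave p = 0.198. Td00002ba028052 (chromosome 8, 137438589 to 137441343, plus strand) was likewise at 0 in the mock plants and in 30 live plants. It had a live median of 1.07 and a maximum of 1195 (live mean 96.9-fold the same limit, DESeq2 adjusted p = 1.39e-08, exact permutation p = 0.233). The mock plants thus did not stand apart from the many live plants that had no count either.

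The 23 genes at 0 in the mock plants ranged from such genes to others that were on in most live plants. They were at 0 in 6 to 50 live plants (median 37 of 62), and their 5 highest live plants held 29.1% to 77.9% of the live total (median 58.3%). Their live means were 12.6-fold to 210-fold the limit over the mock group, which covers counting error only. In 14 of the 23 (60.9%) at least 31 live plants were at 0. This held for 1.48% of all tested genes. Among tested genes at 0 in all mock plants and with a mean of 10 or more, the share was 41.8%, so most of the contrast with all tested genes goes with the mock plants being at 0. The exact permutation p of the 23 ran from 0.00378 to 0.866 with a median of 0.358, and edgeR gave all of them an adjusted p of 0.928 or more. Counts of 0 in all mock plants were found for 0.734% of tested genes, among them 98 with a mean of 10 or more, and the 23 called genes were among those 98.

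Genes that were on in nearly every live plant and low in the mock plants were fewer. They were picked out after their values had been seen, as were all genes named from here on except where the naming rule is cited. Td00002ba019345 (chromosome 5, 162920197 to 162931749, orthologue of Zm00001eb086370) had 14.3, 0 and 32.9 normalized counts in mock replicates 2, 3 and 4 and a live median of 1883 (0 to 6829). Of the live plants, 45 lay above all mock plants and the other 17 among them (log2 fold change 6.77 ± 1.32 SE, DESeq2 adjusted p = 6.78e-04, exact permutation p = 0.0115). It kept its call when each mock plant was left out (6.20 to 7.85), but not in edgeR (adjusted p = 0.942).

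On chromosome 8, 3 genes of 6249 to 6630 bases, lying between 126787242 and 134746505, moved in the same direction. Td00002ba027875 had 65.7, 71.8 and 110 normalized counts in mock replicates 2, 3 and 4, against a live median of 379 (18.9 to 1200), and 59 of 62 live plants lay above the mock plants. Its log2 fold change was 2.39 ± 0.53 SE (DESeq2 adjusted p = 0.00831, exact permutation p = 0.00385). Td00002ba027822 had 13.3, 69.5 and 67.02 in the mock plants against a live median of 241, and Td00002ba027999 had 74.7, 76.4 and 93.3 against 390. Both were called (log2 fold changes of 2.60 ± 0.60 and 2.37 ± 0.52 SE, DESeq2 adjusted p = 0.0143 and 0.00767). The summed absolute difference between Td00002ba027875 and Td00002ba027999 over plants was 13.3% of their summed counts, and whether they share reads was not tested. Without mock replicate 2 none of the 3 stayed called, with log2 fold changes of 2.13 to 2.31 (DESeq2 adjusted p = 0.610, 0.280 and 0.206 in the order Td00002ba027822, Td00002ba027875 and Td00002ba027999). Td00002ba027875 was also not called without replicate 3 (2.30, DESeq2 adjusted p = 0.0579).

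A stretch of chromosome 14 between 11119748 and 11398577 held 3 more genes with low mock values. Td00002ba038218 had 32.3, 50.9 and 24.97 normalized counts in the mock plants and a live median of 619, with 44 live plants above and 11 below all mock plants. Td00002ba038216 had 0, 2.32 and 0 against a live median of 75.7. Td00002ba038214 had 3.18, 6.95 and 10.5 against 38.2. Live values were widely spread (9.65 to 6290 for Td00002ba038218), and the exact permutation p-values were 0.0427, 0.0118 and 0.110 in the order named. Without mock replicate 2 none of them stayed called by DESeq2, and without replicate 4 likewise. Td00002ba038214 lost its call without replicate 3 as well.

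The remaining 4 of the 6 lower genes were high in only 1 or 2 mock plants. Td00002ba036879 had 16.96, 398.3 and 115.7 normalized counts in mock replicates 2, 3 and 4 against a live median of 16.1 (0 to 100.7), and Td00002ba041118 had 11.7, 57.9 and 160 against 21.8 (5.35 to 47.6). Both were called by DESeq2 (log2 fold changes of -2.94 ± 0.68 and -1.78 ± 0.41 SE, adjusted p = 0.0147 and 0.0143) and by edgeR (adjusted p = 0.00806 and 0.0364). Td00002ba041118 fell back to -0.53 without mock replicate 4 (DESeq2 adjusted p = 0.94), and Td00002ba036879 to -1.52 without replicate 3 (DESeq2 adjusted p = 0.423). Td00002ba030262 rested on mock replicate 2 (343, against 9.26 and 2.63 in the others and a live median of 5.56). Td00002ba019355 rested on replicate 3 (505, against 4.77 and 3.94 and a live median of 4.88). Both turned positive without that plant, at 0.17 and 0.86. Td00002ba019355 overlaps a gene on the other strand, and since counting set no strand, the reads of both cannot be told apart.

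Which genes were called, and in which direction, depended on the test. DESeq2 called 33 of 39 genes higher in live plants. EdgeR called 10 of 35020 genes (0.0286%), 1 higher (0.00286%) and 9 lower (0.0257%). Limma voom called 24 (0.0685%), 2 higher (0.00571%) and 22 lower (0.0628%). Of the 39 DESeq2 genes, 4 were also called by edgeR (Td00002ba005946, Td00002ba002229, Td00002ba036879 and Td00002ba041118) and 2 by limma voom (Td00002ba005946 and Td00002ba002576). Genes without a count in many live plants made up much of 2 of the lists, in opposite directions. Of the DESeq2 genes higher in live plants, 18 of 33 had a count of 0 in 16 or more live plants and in all mock plants. Of the limma voom genes lower in live plants, 14 of 22 had a count of 0 in 16 or more live plants and a count in every mock plant. The edgeR list was led by Td00002ba002148 (chromosome 1, orthologue of Zm00001eb047920), which had 2798 normalized counts in mock replicate 2, 299 and 400.8 in replicates 3 and 4, and 91.7 to 561 in live plants (edgeR log2 fold change -1.80, adjusted p = 3.87e-06), and to which DESeq2 gave no p-value. A per-gene exact permutation test called 0 genes after adjustment, with 1022 genes (3.06%) at an unadjusted p under 0.05. In that test the smallest possible p for 3 of 65 plants, 2.29e-05, becomes 0.764 when adjusted for a single gene, so it had no means of calling isolated genes. At an unadjusted p under 0.05, DESeq2 had 2210 genes, edgeR 1370 (3.91%) and limma voom 1997 (5.70%). The DESeq2 genes were 5.09% of all genes given a p-value, a larger set than the 33359 with an adjusted p.

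**Figure D3:**
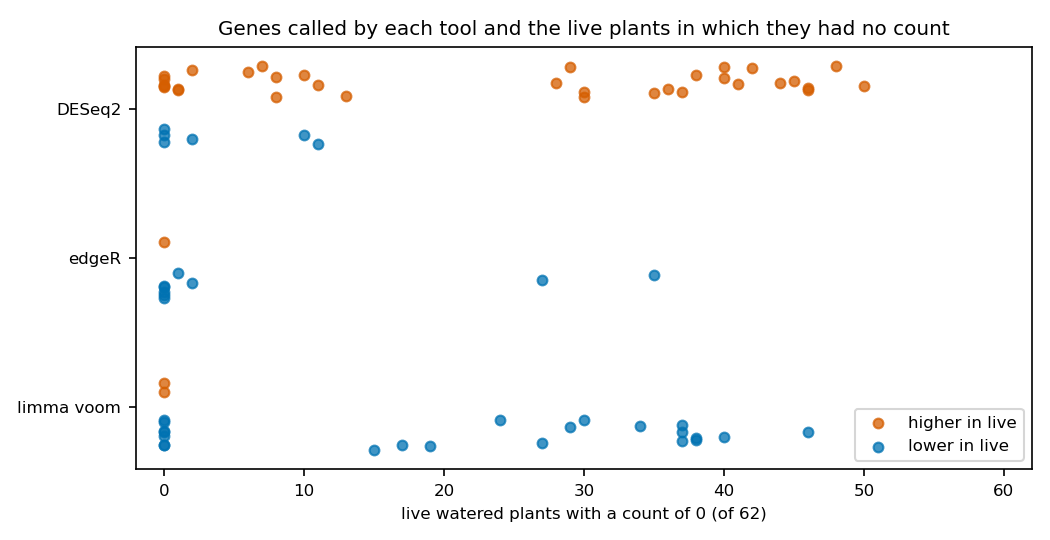
Genes called by each of 3 tools, placed by the number of the 62 live watered plants with a count of 0 (horizontal axis) and coloured by direction, with a small random vertical offset. The DESeq2 genes higher in live plants extend to 50 live plants at 0, and the limma voom genes lower in live plants to 46.

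Leaving out mock plants changed the number of calls more than any change of filter or scaling. DESeq2 called 42 genes without mock replicate 2, 177 without replicate 3 and 77 without replicate 4, and of the 39 genes 17, 31 and 25 were called again. Td00002ba005946 was called in all 17 alternative model fits, with log2 fold changes of 0.69 to 0.86, but not in the exact permutation test, which called no gene. Of the other 38, a further 5 were called in all 15 DESeq2 alternatives but not by edgeR or limma voom, namely Td00002ba019345, Td00002ba025837, Td00002ba025890, Td00002ba027912 and Td00002ba028052.

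Several of the on-and-off genes followed each other from plant to plant. A plant was counted as on at 3 or more normalized counts. Td00002ba027912 and its neighbour Td00002ba027913, 0.944 kb apart on chromosome 8 (130897546 to 130903374), were both on in 24 live plants and both off in 36, with 2 plants on for the first alone. Where on, Td00002ba027912 had a median of 334.2 normalized counts, and it was at 0 in all mock plants. The neighbours Td00002ba025890 and Td00002ba025891, 29.2 kb apart on chromosome 8 and orthologous to the same maize gene (Zm00001eb072060), were on in the same 12 live plants. Their summed absolute difference was 10.6% of their summed counts, and whether they share reads was not tested. In contrast, Td00002ba028052, also on chromosome 8, was on in 13 of the 26 plants in which Td00002ba027912 was on and in 14 of the other 36. Td00002ba002709 and Td00002ba032265, on chromosomes 1 and 10, were both on in 20 plants, and 12 plants had only 1 of them on.

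Some genes at different places had similar counts in the same plants. Td00002ba036460 on chromosome 13 and Td00002ba046068 on scaffold 66 were both on in 43 live plants, with 1 plant on for the second alone and no mock plant on for either. Their summed absolute difference was 12.1% of their summed counts. Td00002ba036422 and Td00002ba046105, each 10390 bases long and placed on the same chromosome and scaffold, were both on in 18 live plants and both off in 44. These 2 were on in every mock plant (145, 162 and 360 normalized counts for Td00002ba036422), and limma voom called both lower in live plants (adjusted p = 5.36e-05 and 8.47e-05), whereas DESeq2 gave them adjusted p-values of 0.952. Their summed absolute difference was 4.03% of their summed counts. Whether such genes share reads was not tested, and their values are uncertain to that extent.

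**Figure D4:**
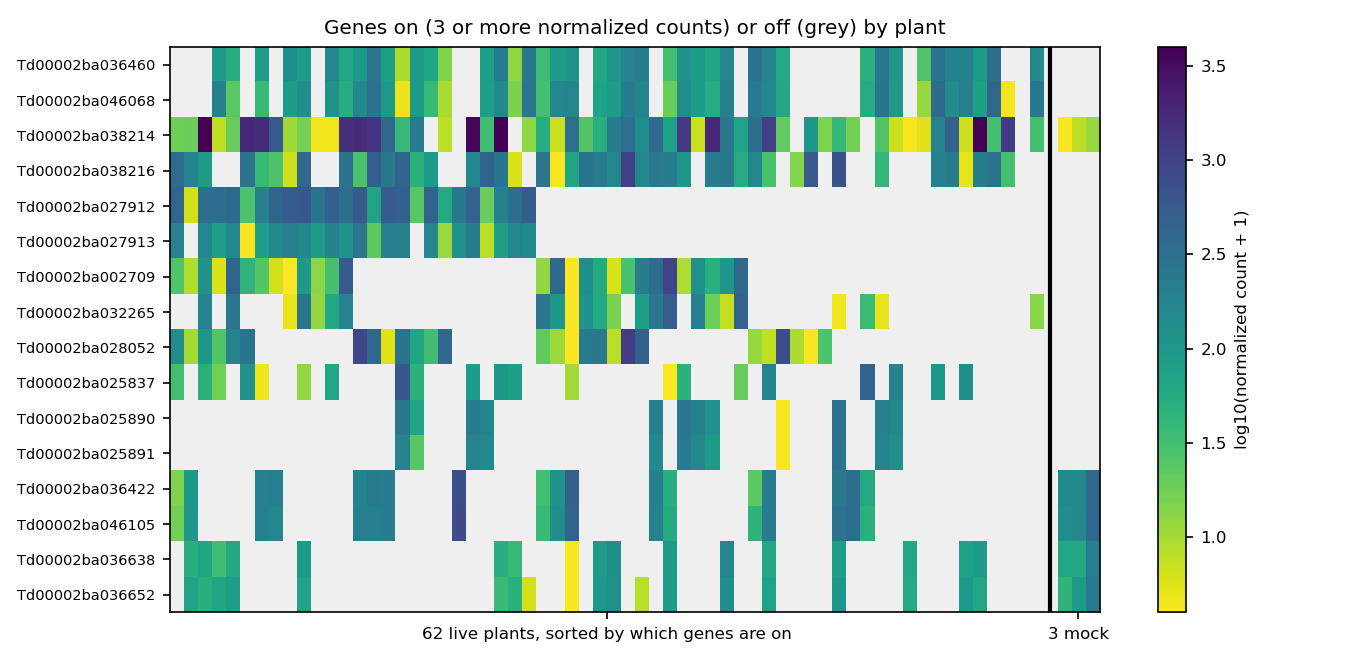
Normalized counts, as log10(count + 1), of 16 genes (rows) in the 62 live and 3 mock plants (columns), with plants under 3 normalized counts in grey. Td00002ba027912 and its neighbour Td00002ba027913 are both on in 24 live plants, the genes of the upper rows are off in the mock plants, except Td00002ba038214, and the 4 lowest genes are on in all 3.

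The plants in which Td00002ba027912 and Td00002ba002709 were on came from every site and every conditioning. Td00002ba027912 was on in 6 of 16 CWR, 7 of 14 WEL, 8 of 16 SVR and 5 of 16 TRI plants, and Td00002ba002709 in 9, 6, 7 and 6. By conditioning, Td00002ba027912 was on in 8 plants for gamagrass and drought, 6 for gamagrass and ample water, 5 for no host and drought, and 7 for no host and ample water. Td00002ba025890 was on in 1 CWR, 1 WEL, 5 SVR and 5 TRI plants, a difference between sites that was not tested.

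Each site was then set against the same 3 mock plants. DESeq2 called 38 genes for CWR (0.0873%), 45 for WEL (0.12%), 49 for SVR (0.136%) and 45 for TRI (0.11%), and edgeR 2 (0.00571%), 9 (0.0257%), 1 (0.00286%) and 7 (0.02%). Since the contrasts share their mock plants, the genes they have in common carry no extra weight. Td00002ba005946 had log2 fold changes of 0.75, 0.80, 0.76 and 0.74 in CWR, WEL, SVR and TRI, with site medians of 539, 576, 544 and 541 normalized counts. For Td00002ba027875 the site medians were 326, 525, 302 and 379, and the log2 fold changes 2.23, 2.84, 2.14 and 2.30 (SE 0.55 to 0.56). By the naming rule the highest gene in each site was Td00002ba029206 (chromosome 9, orthologue of Zm00001eb185110). It was at 0 in the mock plants and in 13 live plants, with site medians of 11.96, 11.3, 2.36 and 7.70 normalized counts and a maximum of 2369 in 1 TRI plant.

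By conditioning, DESeq2 called 56 genes for gamagrass and drought (0.152%), 49 for gamagrass and ample water (0.133%), 43 for no host and drought (0.109%) and 66 for no host and ample water (0.179%), and edgeR 2 (0.00571%), 6 (0.0171%), 2 (0.00571%) and 7 (0.02%). Td00002ba002229 was among the lowest genes by the naming rule in each of the 4 classes, each time against the same mock plants with 1446 in replicate 4.

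**Figure D5:**
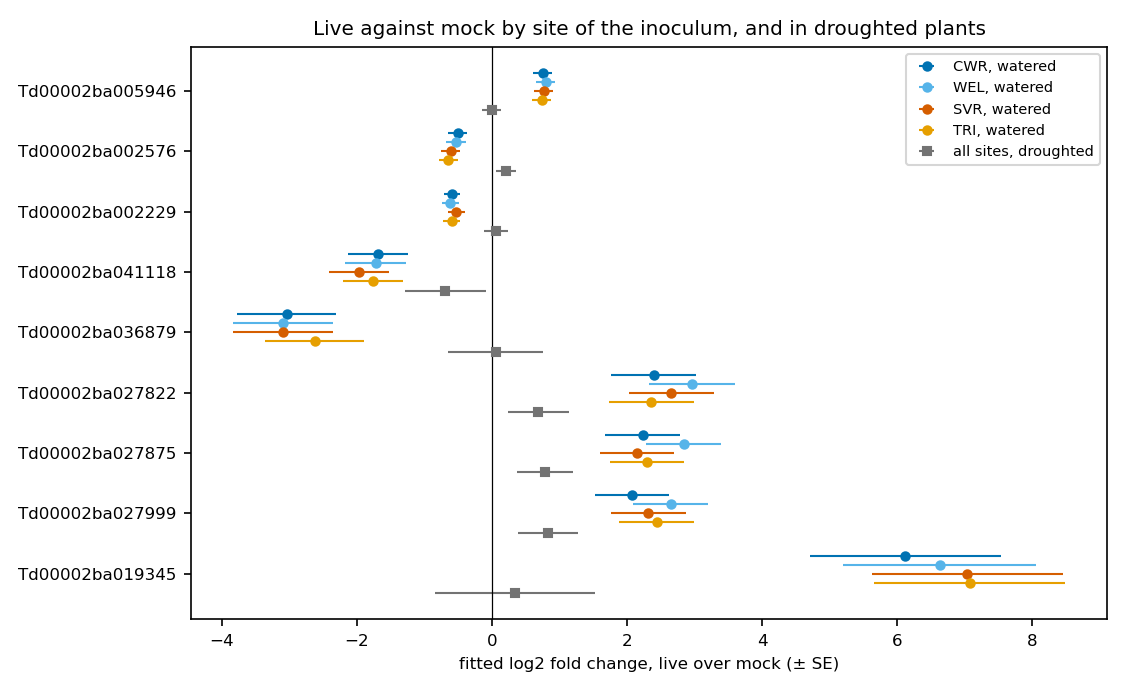
Fitted log2 fold change of live over mock with its standard error (horizontal axis) for 9 genes (rows), by the site of the inoculum in watered plants (circles) and over all sites in droughted plants (squares). The 4 values by site share the same 3 mock plants, and the droughted value of Td00002ba005946 lies at 0.00.

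The droughted plants of the series, 63 live and 4 mock, give the same contrast on plants that the watered comparison did not use. Some may have received the same extracts as watered live plants, which the labels do not give. There DESeq2 called 40 of 41989 genes (0.0953%), 31 higher (0.0738%) and 9 lower (0.0214%), and edgeR 15, all lower (0.0419%). The watered and droughted lists had 3 genes in common (7.69% of the watered and 7.5% of the droughted calls), all higher in live plants: Td00002ba025837, Td00002ba025890 and Td00002ba025891. These were at 0 in all 7 mock plants, and whether Td00002ba025890 and Td00002ba025891 share reads was not tested. Td00002ba025890 had a count in 25 of 62 watered and 23 of 63 droughted live plants and Td00002ba025837 in 24 and 20, and the exact permutation p-values were 0.358 and 0.327 for the first and 0.386 and 0.366 for the second.

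Of the 33 genes higher in watered live plants, 22 also had a log2 fold change above 0 in droughted plants, against 57.3% of the genes fitted in both, and of the 6 lower genes 2 had one below 0. Of the 23 genes at 0 in the watered mock plants, 16 were on in at least 1 droughted mock plant, 4 had counts under 3 there and 3 were at 0 in every droughted mock plant. Td00002ba002709 had 46.1, 308, 0 and 0 normalized counts in droughted mock replicates 1 to 4, Td00002ba027912 had 0, 591, 0 and 0, and Td00002ba019345 had 59.3, 8790, 928 and 14.6. Td00002ba028052 had 0, 1.62, 2.48 and 0. The first 3 of these genes thus varied widely among the droughted mock plants, whereas Td00002ba028052 was low in all 4. Among genes that were on in every watered live plant, Td00002ba005946 had 982, 1069, 725 and 839 against a droughted live median of 908 (log2 fold change 0.00 ± 0.14 SE, DESeq2 adjusted p = 1). Td00002ba002576 had 800, 505, 799 and 674 against 782, Td00002ba002229 had 1236, 1045, 1395 and 1270 against 1208, and Td00002ba027875 had 562, 555, 160 and 428.6 against 693. All 4 droughted mock plants lay below the droughted live median for Td00002ba027875. Normalized counts were scaled within each water treatment, so levels are not compared between them.

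The difference between the contrasts was tested directly, in a fit that did not account for extracts that watered and droughted plants may share. The interaction of inoculum type with water was called for 32 of 44253 genes by DESeq2 (0.0723%), 21 with a higher (0.0475%) and 11 with a lower (0.0249%) contrast in watered plants. By edgeR it was called for 0 of 38022, with 1276 at an unadjusted p under 0.05 (3.36%). For Td00002ba005946 the difference of the contrasts was 0.76 ± 0.20 SE (DESeq2 adjusted p = 0.123) and for Td00002ba002576 -0.78 ± 0.20 SE (DESeq2 adjusted p = 0.114), so neither was shown to differ between water treatments. By the naming rule for this test, the smallest p-values for a higher contrast in watered plants were those of Td00002ba008417 and Td00002ba038215, both at 0 in all watered mock plants. Td00002ba008417 had 1.10, 280, 0 and 0 normalized counts in the droughted mock plants and Td00002ba038215 had 227.3, 0, 487.6 and 0. The smallest for a lower contrast were those of Td00002ba027886 and Td00002ba045884, both at 0 in all droughted mock plants. Td00002ba027886 had 72.1, 0 and 0 in the watered mock plants and Td00002ba045884 had 31.8, 69.5 and 241.8. Td00002ba038215 lies wholly within the bounds of Td00002ba038214 on the same strand, and their reads cannot be told apart where they overlap.

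A list of 29 gamagrass genes was taken from the roles and maize gene names in the study's text, most of which the study had picked on these plants for other contrasts. DESeq2 tested 22 and called none (lowest adjusted p = 0.668), and limma voom called none. EdgeR called 1, Td00002ba006546, an orthologue of named maize genes without a stated role, which had 483.8 normalized counts in mock replicate 2, 4.63 and 0 in replicates 3 and 4, and at most 93.5 in live plants (edgeR log2 fold change -5.39, adjusted p = 0.0052). Td00002ba022717, which the study lists without a name and which was therefore not on this list, was among the 23 genes called by DESeq2 with mock plants at 0 (adjusted p = 1.13e-04, exact permutation p = 0.423). For the 22 tested genes of the list, the median log2 fold change was 0.17 against 0.05 over all tested genes. Of 5 orthologues of maize pathogen-defence genes, 3 were tested, with log2 fold changes of -1.24 to -0.29. Among these Td00002ba031190 had 877, 961 and 429.7 in the mock plants and a live median of 331 (-0.29 ± 0.82 SE), and Td00002ba019413 had 457.8, 87.99 and 0 against 34.4 (-1.24 ± 1.15 SE). The pathogenesis-related orthologues Td00002ba005375 and Td00002ba005376, whose counts differed by 0.0391% of their sum over plants, had 126.1, 23.2 and 3.94 normalized counts in mock replicates 2, 3 and 4 and a live median of 1.34, and DESeq2 gave them no p-value. Td00002ba006103, the orthologue of a maize gene annotated to the response to symbiotic fungi, had 11.1, 6.9 and 11.8 in the mock plants and a live median of 12.99 (log2 fold change 0.60 ± 0.73 SE). The 5 genes linked to ethylene or abscisic acid signalling had log2 fold changes of 0.09 to 1.34. The orthologues of nicotianamine synthase, an enzyme that makes a chelator of iron and zinc, had 0 to 6.6 in the mock plants, and 3 of 4 were tested, at 0.17 to 0.41. The counts of Td00002ba015515 and Td00002ba015516 among them differed by 0% of their sum over plants, so they are not separate values. The heat shock protein gene Td00002ba042486 had 1.1, 0 and 11.8 in the mock plants and a live median of 5.6 (2.06 ± 1.24 SE). For the orthologue of tryptophan synthase, an enzyme of tryptophan synthesis, Td00002ba012570, the mock plants had 1620, 929 and 1225 normalized counts against a live median of 1108 (-0.20 ± 0.23 SE).

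In 22 of the 39 genes (56.4%) the mock plants all lay on 1 side of the live median, against 20.5% of all tested genes. The 39 had been called on these same counts, so a higher share follows from how they were picked. Of the 39, 19 (48.7%) had a maize orthologue in the deposited table, against 78.1% of all tested genes. Their median length was 2755 bases against 3702, and their median mean normalized count 47.9 against 288. Chromosome 8 held 11 of the 39 (28.2%) against 6.01% of the tested genes. Among the 11 are Td00002ba025890 and Td00002ba025891, Td00002ba027875 and Td00002ba027999, and Td00002ba027912 and Td00002ba027913. As described above, these pairs had similar counts or were on together, so the 11 are not independent. Of the 39, 1 overlapped a gene on the other strand, against 17.5% of tested genes. Plant number among live plants was called for 1 of the 39 (2.56%) against 13.6% of the tested genes. Among tested genes at 0 in all mock plants and with a mean of 10 or more, that share was 5.10%. These shares describe the calls and were not tested.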

How the data were processed

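The authors made poly(A) libraries and, per the labels, used cutadapt, HISAT2, SAMtools and featureCounts (2.0.5). The deposited values are expected counts: reads in several genes or places counted as fractions, mates singly, with no strand set. Coordinates are those of this table. A second deposited table pairs gamagrass with maize genes, and neither names genes. Counts were rounded, and live was compared with mock by DESeq2 1.42.0 (Wald tests, Benjamini-Hochberg adjusted p under 0.05), as in the study's methods, with edgeR 4.0.16, limma 3.58.1 (voom) and an exact permutation test as alternatives. The scripts were tested on simulated data, in which counts had the same spread for every gene and on-and-off genes were not imitated. Folds against mock plants all at 0 used a floor of 3 counts over the group, covering counting error only. Named genes were the 2 highest and 2 lowest called genes whose mean normalized count reached 50 and whose mock plants all lay on 1 side of the live median (for the interaction, the 2 smallest p-values in each direction). Members, lists and alternatives were chosen with earlier results of these data known. P-values measure the spread between plants, each grown in its own pot.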

Additional observations from a re-analysis of the deposited data

Results flagged for a closer look

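The contrast of live and mock differed between watered and droughted plants for 32 genes by DESeq2's interaction test. The named ones had fitted differences (watered minus droughted) of 21.93 for Td00002ba008417, 21.83 for Td00002ba038215, -19.92 for Td00002ba027886 and -22.50 for Td00002ba045884. In each, all mock plants of 1 water treatment were at 0, so these values are no folds, and edgeR called none of them.

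In 3 of 9 genes examined for outlying plants, 1 of the 4 droughted mock plants stood far from the other 3, each time replicate 2. It had 307.7 normalized counts of Td00002ba002709, 591.1 of Td00002ba027912 and 8789.9 of Td00002ba019345. The 9 did not include Td00002ba008417, whose highest droughted mock value given above was also that of replicate 2. The nominal rate of about 5% was not worked out for on-and-off genes, where 1 plant on is enough.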

How the results depend on the processing

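The number of genes called in watered plants (39) stayed within 1.5 times under TMM size factors, a filter on low counts, no independent filtering, no replacement of outlier counts, deep libraries alone, neighbouring plants alone, the mean of sites, the interaction model, mock replicate 1 kept and plant number as 2 stretches (29 to 58). It was 10 with edgeR, 24 with limma voom, 146 with a spline of plant number and 164 with 2 surrogate variables. It was 0 with the exact test and 42 to 177 with 1 mock plant left out. The stretches of plant number and the exact test were added after the data had been seen. Of the calls, 84.6% were higher in live plants with DESeq2, 10% with edgeR and 8.33% with limma voom. With edgeR the droughted comparison had 15 calls and the interaction 0, and leaving out 1 mock plant gave 35 to 61 and 41 to 69. By site, edgeR called 2 (CWR), 9 (WEL), 1 (SVR) and 7 (TRI), and leaving out 1 mock plant gave 53 to 190, 53 to 149, 48 to 191 and 57 to 161. As a percentage of genes tested, edgeR called 0.00571%, 0.0171%, 0.00571% and 0.0200% for the 4 conditioning classes in the order given above, and leaving out 1 mock plant gave 0.163% to 0.631%, 0.183% to 0.424%, 0.154% to 0.34% and 0.169% to 1.02%. The cause was not tested. Over 17 alternative fits the 39 genes lost their call in 177 cases with the direction kept and in 2 with it reversed: Td00002ba030262 ran from -4.80 to 0.17 with 1 mock plant left out (0.17 without replicate 2) and Td00002ba019355 from -4.99 to 0.86 (0.86 without replicate 3). Of the genes with a role or name in the study, 1 (Td00002ba006546) was called by edgeR, without mock replicate 3, without replicate 4 and with the stretches of plant number, which makes 0 to 1 with 1 mock plant left out. The share of variation stayed between 1.24% and 1.76%. No paired analysis was possible because the labels do not pair live with mock plants.

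With 3 mock plants, 73.4% of tested genes with a mean of 50 or more had a standard error under 0.5. Over all tested genes with such a mean, the median standard error was 0.286 and the median absolute log2 fold change 0.189. A call took a change of several standard errors, so a difference of 0.5 was itself not detectable for many genes. The smallest detectable difference was not worked out.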
